A study of Mus musculus with 29 samples.

Results

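The globins described here are the oxygen carrying subunits of haemoglobin, as measured in RNA from mouse retina. The members are 5 genes, Hbb-y, Hbb-bh1, Hba-x, Hba-a1 and Hbb-b1, and every probe set annotated to them was used. They have 12 probe sets of the 45101 on the array, 3 for Hbb-y, 3 for Hbb-bh1, 1 for Hba-x, 4 for Hba-a1 and 1 for Hbb-b1. Of these 12, 8 match 1 globin gene. The other 4 match near-identical copies that the array cannot tell apart. Adult alpha A, B and C match Hba-a1 and Hba-a2, while adult alpha D matches Hba-a1 alone. The single adult beta probe set matches Hbb-b1, Hbb-b2, Hbb-bs and Hbb-bt, so no value here belongs to Hbb-b1 by itself. Where a gene has several probe sets, letters name them in the order of their mean log2 signal, and the panels of the plots give their identifiers. A further 3 probe sets belong to other haemoglobin genes, 1 to Hba-a2 and 2 to Hbb-b2.

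The study set the retinas of several inbred mouse strains against those of C57BL6/J mice at a late embryonic age (E18.5) and a young adult age (P30.5). The strains were AKR/J, RD7, NOD.NON-H2-nb1, CAST/EiJ and C57BL6/J, each at P30.5 and at E18.5, and all mice were untreated. RD7 is the label of mice with the retinal degeneration 7 mutation, a defect of the photoreceptor nuclear receptor gene Nr2e3. A group held 3 arrays, or 2 in the case of AKR/J embryos, 29 in all. Every array carried the pooled RNA of 10 dissected retinas, and the sex of the mice was not given. A spread between arrays is a spread between pools, and p-values measure only that.

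Red blood cells and their precursors make haemoglobin from alpha-like and beta-like chains. In the mouse embryo the first red cells, which form in the yolk sac, use the zeta chain of Hba-x and the beta-like chains of Hbb-bh1 and Hbb-y. Cells from the fetal liver and later the bone marrow use the adult alpha chains of Hba-a1 and Hba-a2 and the adult beta chains. The adult beta genes differ between strains by haplotype of the locus: C57BL/6 carries the single haplotype with Hbb-bs and Hbb-bt, and AKR carries the diffuse haplotype with Hbb-b1 and Hbb-b2. The haplotypes of the other strains were not given in the sources used here. Blood left in or around a dissected retina can carry red cells into the RNA, and reticulocytes, the youngest red cells, still hold globin message.

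The genes lie in an alpha and a beta cluster, with the embryonic genes upstream of the adult ones. In RefSeq's GRCm38.p6, a C57BL/6J assembly, Hbb-y (103851754 to 103853207), Hbb-bh1 (103841638 to 103843162), Hbb-bs (103826523 to 103827928) and Hbb-bt (103812524 to 103813923) lie on the minus strand of chromosome 7. Hba-x (32276600 to 32278116), Hba-a1 (32283672 to 32284486) and Hba-a2 (32296492 to 32297310) lie on the plus strand of chromosome 11. The 150 bases before the start of 5 of these genes are shown because the adult alpha and beta genes moved together across arrays and Hbb-y did not follow them in every strain. Capitals mark 6 short motifs on either strand: the CACCC box, the CCAAT box, the GATAA core, TATAA as well as ATAAA for the box near the start, and the TGACC site. The sequences are RefSeq's and end at the base before the start, and none was matched for Hbb-bh1 or Hbb-b1.
Hbb-y, embryonic beta, chr7:103853208-103853357: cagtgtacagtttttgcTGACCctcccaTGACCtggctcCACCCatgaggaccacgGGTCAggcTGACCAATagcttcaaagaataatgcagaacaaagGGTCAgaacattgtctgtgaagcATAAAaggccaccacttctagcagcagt
Hbb-bs, adult beta, chr7:103827929-103828078: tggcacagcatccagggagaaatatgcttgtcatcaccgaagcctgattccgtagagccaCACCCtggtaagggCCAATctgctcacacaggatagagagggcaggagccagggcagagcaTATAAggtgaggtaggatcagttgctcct
Hbb-bt, adult beta, chr7:103813924-103814073: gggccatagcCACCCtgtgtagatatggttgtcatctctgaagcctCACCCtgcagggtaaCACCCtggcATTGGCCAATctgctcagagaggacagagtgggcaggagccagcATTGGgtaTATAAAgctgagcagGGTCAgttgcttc
Hba-x, embryonic zeta, chr11:32276450-32276599: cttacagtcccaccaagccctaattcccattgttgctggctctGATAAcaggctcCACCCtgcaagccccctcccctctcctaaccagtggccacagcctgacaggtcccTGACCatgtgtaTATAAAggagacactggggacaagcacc
Hba-a1, adult alpha, chr11:32283522-32283671: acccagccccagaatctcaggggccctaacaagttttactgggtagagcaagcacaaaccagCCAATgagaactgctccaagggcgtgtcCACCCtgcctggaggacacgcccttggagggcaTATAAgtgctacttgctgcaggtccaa

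All 5 windows held CACCC, a motif bound by Krüppel-like factors, and an A and T rich box near the start. CCAAT was in Hbb-y, Hbb-bs, Hbb-bt and Hba-a1, and GATAA, the core bound by GATA factors, was in Hba-x alone among the 5. TGACC, letters that many nuclear receptors bind, was found at 5 places in Hbb-y, 1 in Hbb-bt and 1 in Hba-x. Of 32851 promoter windows of the same length, 37.4% held the CACCC box, 24.5% held CCAAT, 13.3% held GATAA, 14.2% held TATAA, 24.1% held ATAAA and 23.1% held TGACC, on either strand. TATAA and ATAAA overlap in TATAAA, and TGACC and CCAAT overlap by their shared letters in Hbb-y. A match describes these letters and is not a binding site shown by these data.

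The tissue was checked first. A list of retina markers was measured for 8 of its 10 genes, and its mean log2 signal over genes was 12.53 to 13.02 in the P30.5 arrays and 8.53 to 9.92 in the E18.5 arrays. Markers of skeletal muscle, which should be absent from a dissected retina, had a mean of 4.21 to 6.28 over their 9 genes, all measured, in the P30.5 arrays. At E18.5 the same mean was 11.87 and 11.97 in AKR/J, 6.94 to 11.96 in RD7, 6.0 to 11.07 in NOD.NON-H2-nb1, 7.63 to 11.13 in CAST/EiJ and 5.49 to 5.70 in C57BL6/J. So at least 1 E18.5 pool of every strain but C57BL6/J stood above 11 for these genes. The summed MAS5 signal of the muscle list was 42800 to 47620 in AKR/J and 681 to 843 in C57BL6/J at E18.5. Markers of the mesenchyme around the eye, 10 of 11 measured, moved with muscle, with means of 11.70 and 11.91 in AKR/J and 5.00 to 7.61 in C57BL6/J at E18.5. The corresponding mean for red cell markers, 16 of 20 genes measured, was 6.15 to 7.30 at P30.5 and 5.87 to 6.97 at E18.5. Platelet markers, 6 of 6 measured, ran from 5.51 to 6.84 at P30.5 and 5.53 to 7.61 at E18.5, and leukocyte markers, 9 of 9, from 4.43 to 6.52 at P30.5 and 4.55 to 7.05 at E18.5.

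The main values are MAS5 signals, which are linear intensities scaled to the same trimmed mean on every array. They were compared on the log2 scale with limma, and a call needed an adjusted p below 0.001 with a change of 2-fold or more. The first comparison was between ages within each strain. The adult beta probe set was lower at P30.5 than at E18.5 in every strain's mean. In AKR/J the signals were 2441, 970 and 1551 at P30.5, against 24250 and 25030 at E18.5. In RD7 they were 2934, 3141 and 2062 at P30.5, against 19750, 27580 and 24120 at E18.5. The ages were far apart in both strains.

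The other strains kept more adult beta signal at P30.5 or had less at E18.5. CAST/EiJ had 2485, 12280 and 7028 at P30.5, against 14130, 15230 and 18880 at E18.5. NOD.NON-H2-nb1 had 7370, 4233 and 6723 at P30.5, against 14900, 20450 and 26910 at E18.5. C57BL6/J had 9466, 1642 and 2210 at P30.5, against 13500, 8731 and 6875 at E18.5. The ages overlapped in C57BL6/J, through its first P30.5 pool, and in no other strain. The share of all probe sets without overlap is not given, here or for the probe sets below. Statements of overlap thus only describe the arrays.

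On the log2 scale the adult beta difference, P30.5 minus E18.5, was -4.00 ± 0.55 (SE) in AKR/J (limma adjusted p = 2.43e-06) and -3.14 ± 0.49 in RD7 (adjusted p = 1.36e-05). Both were called. It was -1.76 ± 0.49 in NOD.NON-H2-nb1 (adjusted p = 0.00739), -1.41 ± 0.49 in CAST/EiJ (adjusted p = 0.0315) and -1.52 ± 0.49 in C57BL6/J (adjusted p = 0.0203), none of which was called. The standard error is pooled over all groups by the fit.

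Adult alpha gave values like those of adult beta. Adult alpha A, shared by Hba-a1 and Hba-a2, read 3548, 1188 and 2445 in AKR/J at P30.5, against 26020 and 28950 at E18.5. It read 2828, 4064 and 2424 in RD7 at P30.5, against 21830, 32830 and 26850 at E18.5. The log2 difference was -3.66 ± 0.53 in AKR/J (limma adjusted p = 5.52e-06) and -3.14 ± 0.47 in RD7 (adjusted p = 8.36e-06). The arrays of the 2 ages did not overlap in either strain.

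In NOD.NON-H2-nb1 adult alpha A had 5168, 2785 and 5380 at P30.5, against 13350, 19030 and 29140 at E18.5. It fell by 2.19 ± 0.47 (limma adjusted p = 0.000734), and it was the only member called there. That call sits close to the threshold. Sample titles carry a date, whose meaning the labels do not give. In the fit with this title date as replicate block its adjusted p was 0.0011, above the threshold, and the call was lost. CAST/EiJ had 2251, 10600 and 5934 at P30.5, against 14340, 15430 and 18870 at E18.5, a difference of -1.63 ± 0.47 (adjusted p = 0.0103). C57BL6/J had 8752, 2027 and 2805 at P30.5, against 14250, 11190 and 8717 at E18.5, a difference of -1.60 ± 0.47 (adjusted p = 0.0114), and its ages overlapped.

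Adult alpha B ranged from 929 to 11580 at P30.5 and from 4969 to 27180 at E18.5. Its log2 difference was -3.78 ± 0.51 in AKR/J (limma adjusted p = 2.08e-06) and -3.28 ± 0.46 in RD7 (adjusted p = 2.84e-06), and it was not called in the other strains. Adult alpha C, whose level differed more between strains than those of A and B, had age differences of -6.70 ± 0.84 in AKR/J (adjusted p = 6.03e-07) and -4.89 ± 0.75 in RD7 (adjusted p = 1.08e-05), also called in these strains alone.

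**Figure D1:**
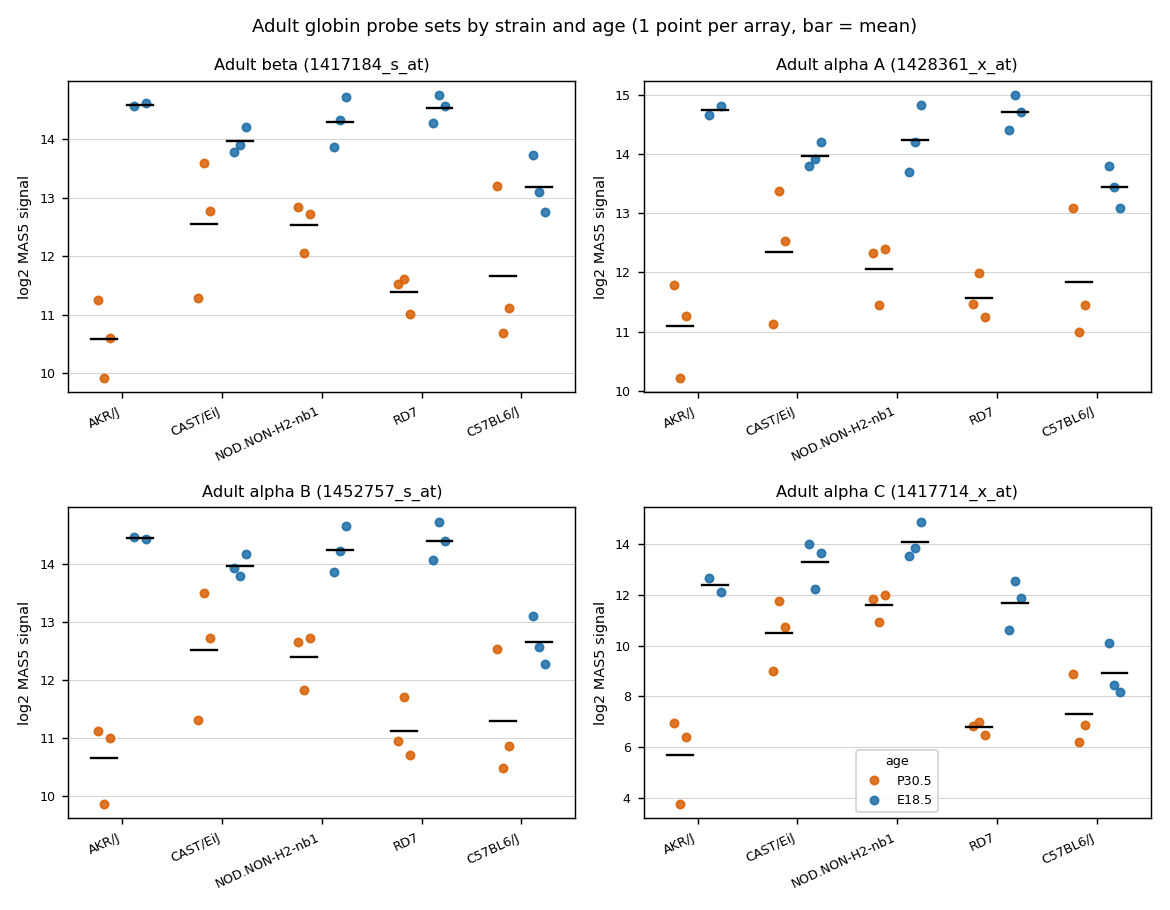
Log2 MAS5 signal (vertical axes) of the 4 adult globin probe sets in each array, by strain along the horizontal axis, with P30.5 in orange left of E18.5 in blue and bars at the group means. The E18.5 points stand above the P30.5 points in AKR/J, RD7, NOD.NON-H2-nb1 and CAST/EiJ in all 4 panels, and those of C57BL6/J overlap.

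By group mean, the order of the adult beta levels was the same as the order of the levels of adult alpha A and B. Within E18.5 it ran from AKR/J through RD7, NOD.NON-H2-nb1 and CAST/EiJ to C57BL6/J, and within P30.5 from CAST/EiJ through NOD.NON-H2-nb1, C57BL6/J and RD7 to AKR/J. AKR/J thus stood first at E18.5 and last at P30.5. Neighbours in this order overlapped in their arrays, except that CAST/EiJ stood clear of C57BL6/J at E18.5. In these bulk pools, fewer red cells and less globin RNA per red cell cannot be told apart.

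Over all 12 member probe sets, 6 were called lower at P30.5 in AKR/J, where 9.92% of all 45101 probe sets were called in either direction, and the median log2 change of the members was -3.33. In RD7, 4 of 12 were called lower, with 10.7% of all probe sets called and a median of -2.32. In NOD.NON-H2-nb1 it was 1 of 12, with 11% of all called. CAST/EiJ had 0 of 12 called, with 11.2% of all called, and C57BL6/J had 0 of 12, with 11.5% of all called. At an unadjusted p under 0.05 limma gave 7 of 12 in CAST/EiJ and 5 of 12 in C57BL6/J. The share of all probe sets at that looser level was not computed, so these counts have no background to be set against. Without the first P30.5 pool of C57BL6/J, the one with 9466 for adult beta, 2 of 12 were called in that strain, and without the third E18.5 pool of CAST/EiJ 1 of 12 was called there. The NOD.NON-H2-nb1 call was lost without any 1 of its P30.5 pools, and without pool 2 or pool 3 of E18.5. No member was called higher at P30.5 in any strain.

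Whether the age change differed between strains was tested as an interaction, the change in a strain minus that in C57BL6/J. For adult beta it was -2.48 ± 0.73 in AKR/J (limma adjusted p = 0.102) and -1.62 ± 0.69 in RD7 (adjusted p = 0.473), so a difference from C57BL6/J was not shown. From the MAS5 signals 0 of 12 members were called in any of the interactions, for which 0.0333% of all probe sets were called in AKR/J, 0.0576% in RD7, 0.0111% in NOD.NON-H2-nb1 and 0.186% in CAST/EiJ. Unadjusted p-values under 0.05 were reached by 7, 7, 2 and 3 of the 12 members in these strains, and the share of all probe sets at that level was not computed.

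Hbb-y, the embryonic epsilon-like chain, gave the clearest difference between strains. The difference came from its probe sets A and B, whose names mark sequence that may be shared with other transcripts. Hbb-y B read 1.24, 0.975 and 0.524 in AKR/J at P30.5, against 897 and 1090 at E18.5. In C57BL6/J it read 23.8, 2.55 and 8.70 at P30.5, against 12.8, 0.688 and 18.6 at E18.5. The AKR/J embryonic pools stood apart from all the others, among which the highest signal was 70.8. At P30.5 the C57BL6/J pools lay above those of every other strain, none of which exceeded 2.52, a difference that was not called.

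Hbb-y A gave 4.33, 0.464 and 0.537 in AKR/J at P30.5, against 806 and 1080 at E18.5. Its E18.5 signals were 2.78, 69.8 and 51.9 in RD7, 11.4, 27.6 and 45.3 in NOD.NON-H2-nb1, 75.3, 16.4 and 1.16 in CAST/EiJ, and 24.5, 4.45 and 2.53 in C57BL6/J. At P30.5 it was at most 18.3 in any array. The AKR/J embryonic pools were again the only arrays in which the probe set exceeded the median signal of its array. Hbb-y C had at most 34.4 in any array, its highest value being in AKR/J at E18.5, and was called in no comparison. Probe sets of the same gene thus gave different pictures. The strain difference of Hbb-y A and B cannot be read as one in Hbb-y RNA from these data alone.

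Signals near 1 are at the bottom of the MAS5 scale, so log2 differences against them are large and loose. They were -10.17 ± 1.39 for Hbb-y B and -9.83 ± 1.62 for Hbb-y A with age in AKR/J (limma adjusted p = 2.38e-06 and 3.52e-05), both called. With 16 added to every signal before the log these became -5.89 and -5.75 (adjusted p = 3.56e-10 and 7.05e-09), still called. At E18.5 AKR/J exceeded C57BL6/J by 7.50 ± 1.39 for Hbb-y B (adjusted p = 0.000773), a call, and by 7.16 ± 1.62 for Hbb-y A (adjusted p = 0.00509), not called.

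Hbb-y A and B were also in the table of RMA values, a log2 summary that damps low signals, which held 2 of the 12 members. The RMA values of Hbb-y B were 3.29, 3.19 and 3.05 in AKR/J at P30.5, against 8.45 and 8.92 at E18.5, and in C57BL6/J 3.46, 3.08 and 3.17 at P30.5, against 3.49, 3.33 and 3.42 at E18.5. Here the spread between arrays was small in both strains. The age difference in AKR/J was -5.51 ± 0.29 (limma adjusted p = 2.87e-13), and for Hbb-y A -5.30 ± 0.31 (adjusted p = 1.62e-12), in a comparison where 16.7% of 25444 RMA probe sets were called.

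AKR/J exceeded C57BL6/J at E18.5 by 5.27 ± 0.29 (limma adjusted p = 6.02e-12) for Hbb-y B and 4.99 ± 0.31 (adjusted p = 4.75e-11) for Hbb-y A in the RMA values, where 4.38% of all were called. The interaction, the AKR/J age change minus that in C57BL6/J, was -5.33 ± 0.39 (limma adjusted p = 7.78e-09) for Hbb-y B and -5.01 ± 0.41 (adjusted p = 4.21e-08) for Hbb-y A, where 0.236% of RMA probe sets were called. From the MAS5 signals the interactions were -10.73 ± 1.86 (adjusted p = 0.00407) and -8.31 ± 2.17 (adjusted p = 0.0576), which were not called, and with 16 added before the log they were -5.94 and -5.44 and were called. The direction was the same in each. In a check added after the data were seen, leaving out each of the 11 AKR/J and C57BL6/J arrays in turn kept all 3 RMA results of both probe sets called, with the interaction between -5.57 and -5.10 for Hbb-y B and between -5.26 and -4.75 for Hbb-y A, and so did the title date as a block.

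No other strain had a call for Hbb-y. From the RMA values the age change of Hbb-y B was -0.71 ± 0.26 in RD7 (limma adjusted p = 0.0259), -0.74 ± 0.26 in NOD.NON-H2-nb1 (adjusted p = 0.023), -0.88 ± 0.26 in CAST/EiJ (adjusted p = 0.00752) and -0.17 ± 0.26 in C57BL6/J (adjusted p = 0.626).

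**Figure D2:**
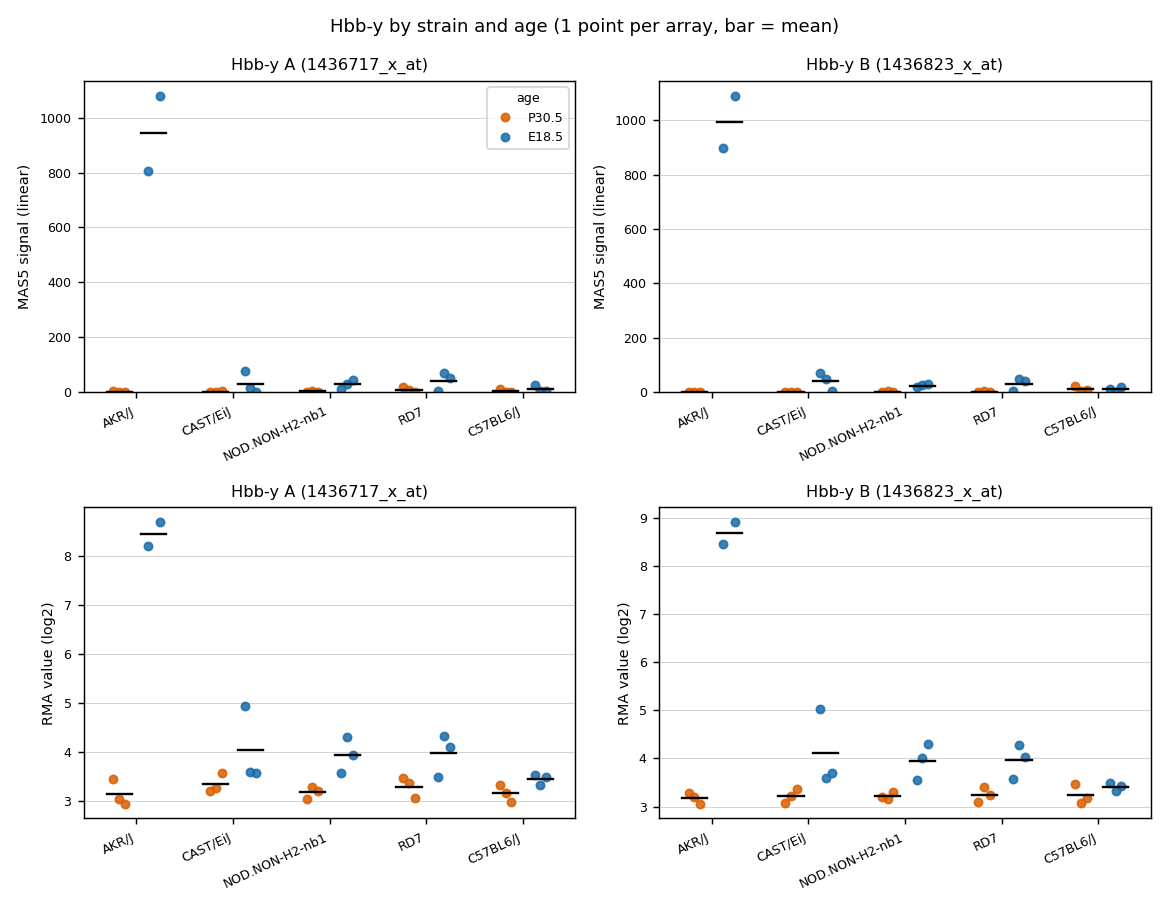
Hbb-y in each array for its probe sets A and B, as linear MAS5 signal (top) and as RMA log2 value (bottom), by strain along the horizontal axis, with P30.5 in orange left of E18.5 in blue and bars at the group means. The AKR/J E18.5 arrays lie near 806 to 1090 on the MAS5 scale, and no other array is above 75.3.

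The AKR/J embryonic pools also had high muscle markers, as did single pools of NOD.NON-H2-nb1 and CAST/EiJ and 2 of RD7. The mean of endothelial markers was 8.30 and 9.15 in AKR/J against 5.98 to 6.64 in C57BL6/J at E18.5. Of the 8 endothelial genes 0 were called in that contrast, where 1.48% of all genes were called higher and 0.709% lower. Not every member was higher, as Kdr read 2969 to 3723 in AKR/J and 4274 to 4780 in C57BL6/J. Summed endothelial signals overlapped, at 5095 to 7454 in AKR/J and 5137 to 5568 in C57BL6/J. The part of these markers in the Hbb-y result was not tested. The second RD7 embryonic pool had means of 11.96 for muscle, 10.81 for mesenchyme and 7.24 for endothelium. Its adult alpha A signal was 32830 and its Hbb-y A signal 69.8. The third RD7 embryonic pool had means of 11.2, 11.8 and 8.74 in the same order. Its adult alpha A signal was 26850 and its Hbb-y A signal 51.9. The first CAST/EiJ embryonic pool had means of 11.13, 11.4 and 8.28 in the same order. Its adult alpha A signal was 14340 and its Hbb-y A signal 75.3. The AKR/J embryonic pools had muscle means of 11.87 and 11.97, mesenchyme means of 11.7 and 11.91 and endothelial means of 8.30 and 9.15. Their adult alpha A signals were 26020 and 28950 and their Hbb-y A signals 806 and 1080.

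Against the adult alpha signal of the same array, Hbb-y (Hbb-y A minus adult alpha A, log2) was -11.05 ± 1.26 (SD, n = 3) in AKR/J at P30.5 and -4.88 ± 0.19 (n = 2) at E18.5. The other strains had means between -9.26 and -12.21 at P30.5 and between -9.65 and -10.74 at E18.5. Averaged over strains the P30.5 minus E18.5 difference was -1.70 (permutation of ages within strains, 2-sided, p = 0.0531), and with 16 added before the log its direction turned, to 0.57 (permutation p = 0.17). That average joins a change of -6.17 in AKR/J with changes from -1.73 to 1.02 elsewhere.

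The other embryonic chains were dim at both ages. Hbb-bh1 had at most 34.2 for its probe set A, 33.7 for B and 13.5 for C in any array. Hba-x, measured by a single probe set, ranged from 12.5 to 100.7 at P30.5 and from 4.39 to 67.6 at E18.5, and so did not stand higher in the embryo. In CAST/EiJ it read 12.5, 72.2 and 55.0 at P30.5, against 4.39, 5.99 and 5.96 at E18.5, and in RD7 100.7, 90.2 and 57.6 at P30.5, against 36.4, 4.44 and 10.6 at E18.5. The ages did not overlap in either strain. The log2 difference was 2.77 ± 0.74 in CAST/EiJ (limma adjusted p = 0.00554) and 2.75 ± 0.74 in RD7 (adjusted p = 0.00594), neither called, and with 16 added before the log it was 1.39 and 1.67. In AKR/J, where Hbb-y A and B stood high at E18.5, Hba-x read 51.8, 26.5 and 19.2 at P30.5, against 45.4 and 18.6 at E18.5. Neither gene exceeded the median signal of its array in any pool.

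Adult alpha D, the probe set annotated to Hba-a1 alone, had 6.12 to 71.6 at P30.5 and 4.91 to 73.1 at E18.5. Adult alpha A and B, which are shared with Hba-a2, read 929 or more in every array. The probe set annotated to Hba-a2 alone read only 14.9 to 149.0, so these values do not show which gene gave the shared signal. Adult alpha D, Hbb-y C, the 3 of Hbb-bh1 and that of Hba-x are 6 dim probe sets. They gave 0 calls with limma in 78 comparisons by age or strain, of which 13 had an unadjusted p under 0.05. The share of all probe sets at that level was not computed.

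The strain contrasts at each age asked how the globins of each strain stood against C57BL6/J. Of the 96 results of members in these contrasts, 4 were called. At P30.5 they were 0 of 12 in AKR/J (0.747% of all probe sets called), 0 of 12 in RD7 (0.124%), 1 of 12 in NOD.NON-H2-nb1 (0.687%) and 0 of 12 in CAST/EiJ (4.2%). At E18.5 they were 1 of 12 in AKR/J (1.68%), 0 of 12 in RD7 (0.253%), 1 of 12 in NOD.NON-H2-nb1 (0.681%) and 1 of 12 in CAST/EiJ (5.17%). All 4 were higher than in C57BL6/J. The AKR/J call was Hbb-y B and the other 3 were adult alpha C. Each of the 4 was lost when certain pools were left out. The AKR/J call was lost without either AKR/J pool, and without pool 1 or pool 2 of C57BL6/J. The E18.5 call of NOD.NON-H2-nb1 was lost without its pool 3 or pool 3 of C57BL6/J, and its P30.5 call without any 1 of its pools or pool 2 or pool 3 of C57BL6/J. The CAST/EiJ call was lost without its pool 1 or pool 3, and without pool 2 or pool 3 of C57BL6/J. Without the first C57BL6/J pool at P30.5, CAST/EiJ had 1 call. For the contrasts with 0 calls, unadjusted p-values under 0.05 numbered 3, 1 and 3 of 12 at P30.5 in AKR/J, RD7 and CAST/EiJ, and 5 of 12 at E18.5 in RD7. These counts too have no share over all probe sets beside them.

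The adult beta difference from C57BL6/J at E18.5 was 1.40 ± 0.55 in AKR/J (limma adjusted p = 0.137), 1.34 ± 0.49 in RD7 (adjusted p = 0.187), 1.11 ± 0.49 in NOD.NON-H2-nb1 (adjusted p = 0.391) and 0.78 ± 0.49 in CAST/EiJ (adjusted p = 0.35). The arrays of each strain stood above those of C57BL6/J without overlap, but no difference passed the threshold over all probe sets. These contrasts share the same C57BL6/J arrays and so are not separate observations, and the share of all probe sets without overlap is not given here. At P30.5 the adult beta arrays of every strain overlapped those of C57BL6/J.

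Adult alpha C matches Hba-a1 and Hba-a2 as adult alpha A does but differed from it by strain. At P30.5 it read 3643, 1941 and 4117 in NOD.NON-H2-nb1, 515, 3422 and 1698 in CAST/EiJ, 115, 127 and 89.5 in RD7, 125, 13.4 and 84.2 in AKR/J, and 467, 74.4 and 116 in C57BL6/J. At E18.5 it read 11720, 14670 and 30270 in NOD.NON-H2-nb1, 16280, 4850 and 12990 in CAST/EiJ, 1554, 5945 and 3708 in RD7, 6563 and 4448 in AKR/J, and 1112, 353 and 286 in C57BL6/J. Both NOD.NON-H2-nb1 and CAST/EiJ stood above C57BL6/J at both ages with no overlap.

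NOD.NON-H2-nb1 exceeded C57BL6/J by 4.27 ± 0.75 at P30.5 (limma adjusted p = 0.000796) and by 5.17 ± 0.75 at E18.5 (adjusted p = 6.51e-05). In the fit with title date as replicate block these adjusted p-values were 0.00115 and 0.00161, above the threshold, so that both calls were lost, with a log2 difference of 4.84 at E18.5. CAST/EiJ exceeded C57BL6/J by 4.39 ± 0.75 at E18.5 (adjusted p = 0.000104), or 4.06 with the block (adjusted p = 0.00178), and by 3.18 ± 0.75 at P30.5 (adjusted p = 0.004), not called. Adult alpha A differed from C57BL6/J by 0.21 ± 0.47 and 0.80 ± 0.47 for NOD.NON-H2-nb1 at the ages P30.5 and E18.5, and by 0.50 ± 0.47 and 0.53 ± 0.47 for CAST/EiJ. Probe sets for the same genes thus gave different pictures, and the difference of adult alpha C between strains cannot be read as a difference in alpha globin RNA from these data alone.

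The difference between the alpha probe sets within an array, adult alpha C minus A on the log2 scale, shows this. It was -0.47 ± 0.07 (SD, n = 3) in NOD.NON-H2-nb1 pools of P30.5 and -0.17 ± 0.22 at E18.5, and -1.85 ± 0.25 and -0.68 ± 0.93 in CAST/EiJ. In C57BL6/J it was -4.53 ± 0.28 at P30.5 and -4.53 ± 0.74 at E18.5. It spanned -2.13 to 0.18 over the 12 arrays of NOD.NON-H2-nb1 and CAST/EiJ, and -6.47 to -1.99 over the 17 arrays of AKR/J, RD7 and C57BL6/J. It also moved with age, to -5.39 ± 0.94 in AKR/J at P30.5, against -2.35 ± 0.51 (n = 2) at E18.5, and to -4.79 ± 0.20 in RD7 at P30.5, against -3.04 ± 0.69 at E18.5. This comparison was chosen after the values had been seen and was not tested. Sequence differences under the probes between strains were not examined, and their part in these values was not tested.

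Another alpha difference, adult alpha B minus A, was smaller, and it too was highest in NOD.NON-H2-nb1 and CAST/EiJ: -0.43 ± 0.21 in AKR/J, -0.45 ± 0.14 in RD7, 0.34 ± 0.03 in NOD.NON-H2-nb1, 0.17 ± 0.04 in CAST/EiJ and -0.56 ± 0.05 in C57BL6/J at P30.5 (SD, n = 3 each).

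A strain pattern also appeared in Hbb-b2 B, a probe set of Hbb-b2, the minor adult beta gene of the diffuse haplotype. At E18.5 it read 884 and 387 in AKR/J, 178, 289 and 244 in RD7, 101, 103 and 330 in NOD.NON-H2-nb1, and 1273, 142 and 178 in CAST/EiJ, against 5.14, 12.2 and 4.06 in C57BL6/J. At P30.5 it was at most 49.9 in any array. So every E18.5 pool of the other strains exceeded every C57BL6/J pool at that age, RD7 included, while the adult beta probe set, which matches Hbb-bs and Hbb-bt too, was bright in all strains. Hbb-b2 A showed no such pattern, and every strain overlapped C57BL6/J. At E18.5 it read 22.2 to 76.9 in AKR/J, 49.7 to 137.2 in RD7 and 44.3 to 77.3 in NOD.NON-H2-nb1. It read 23.4 to 126.3 in CAST/EiJ and 3.85 to 74.6 in C57BL6/J.

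For Hbb-b2 B, AKR/J exceeded C57BL6/J by 6.53 ± 1.08 (limma adjusted p = 0.000225, or 0.00198 with title date as replicate block) and CAST/EiJ by 5.65 ± 0.96 (adjusted p = 9.96e-05, or 0.00133 with the block) at E18.5. The C57BL6/J signals are at the bottom of the scale, and with 16 added before the log these differences were 4.72 and 3.90, still called. The age difference of Hbb-b2 B was -6.60 ± 1.08 in AKR/J, -5.65 ± 0.96 in RD7, -4.45 ± 0.96 in NOD.NON-H2-nb1 and -4.62 ± 0.96 in CAST/EiJ, all called. With 16 added before the log these were -4.72, -3.58, -2.87 and -3.31, also called. Its NOD.NON-H2-nb1 adjusted p was 0.000752, or 0.00107 with the block. In C57BL6/J it had no call with age, its level being near the bottom of the scale at both. Hbb-b2 A stayed between 2.93 and 137.2 in all arrays, and the Hba-a2 probe set between 14.9 and 149.0. With 16 added before the log, Hbb-b2 A differed from C57BL6/J at E18.5 by 0.18 in AKR/J and 0.38 in CAST/EiJ. Neither was called (limma adjusted p = 0.948 and 0.81). The strain difference of Hbb-b2 B thus cannot be read as a difference in Hbb-b2 RNA from these data alone.

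**Figure D3:**
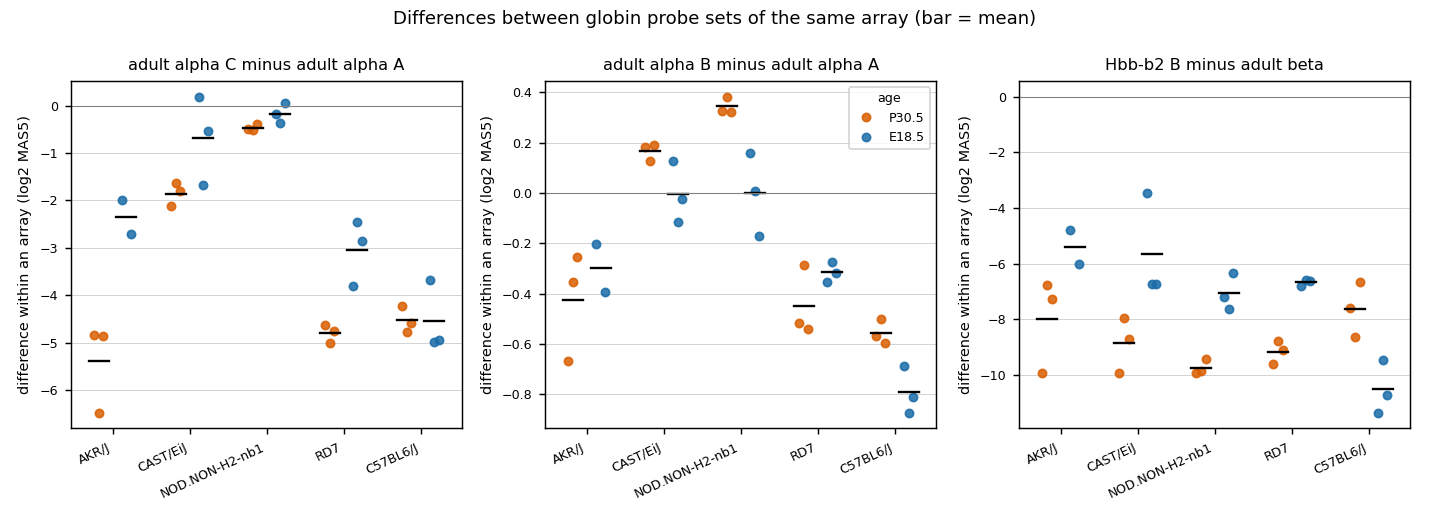
Differences in log2 MAS5 signal between globin probe sets of the same array (vertical axes), by strain along the horizontal axis, with P30.5 in orange left of E18.5 in blue, bars at the group means and a line at 0. In the left panel (adult alpha C minus A) NOD.NON-H2-nb1 and CAST/EiJ lie between -2.13 and 0.18, and in the right panel (Hbb-b2 B minus adult beta) C57BL6/J at E18.5 lies lowest, near -10.52.

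Adult alpha and adult beta rose and fell together from pool to pool. Over the 15 arrays of P30.5 the log2 signals of adult alpha A and adult beta had Pearson r = 0.95 and Spearman rho = 0.89 (permutation, adjusted p = 4e-05 and 0.00012 over 8 relations). Over the 14 arrays of E18.5, r was 0.97 and rho 0.98 (permutation, adjusted p = 4e-05 and 8e-05). Without the arrays farthest from the median of alpha, 2 at each age, r was 0.91 and 0.96, and with group means subtracted it was 0.98 and 0.95. Pools of the same strain and age thus differed in alpha and beta together, as the C57BL6/J pools at P30.5 did, with adult beta at 9466, 1642 and 2210 and adult alpha at 8752, 2027 and 2805. No title date held 6 arrays of 1 age, so the relation was not computed within dates.

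The relation of Hbb-y, read from Hbb-y A, with adult beta was weaker. Hbb-y A had a median signal of 0.999 at P30.5, and outside AKR/J at most 75.3 at E18.5. At levels so near the bottom of the scale, a weak r does not show whether the genes vary apart. The r of Hbb-y with adult beta was 0.28 at P30.5 and 0.57 at E18.5 (permutation, adjusted p = 0.339 and 0.0536), with rho of 0.41 and 0.60 (adjusted p = 0.173 and 0.0396). Without the 2 arrays farthest out on Hbb-y, which at E18.5 were the AKR/J pools, r at E18.5 was 0.49. With group means subtracted r was 0.52 at P30.5 and 0.37 at E18.5 (permutation, adjusted p = 0.0939 and 0.224). With Hbb-bh1, r was 0.27 at P30.5 and 0.32 at E18.5 (adjusted p = 0.339 for each), with rho of 0.34 and 0.39.

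Alas2, the erythroid enzyme that starts haem synthesis, followed the adult globins. Its signals at P30.5 were 4.19 to 30.3 in AKR/J, 22.6 to 86.9 in RD7, 61.6 to 132 in NOD.NON-H2-nb1, 50.1 to 129 in CAST/EiJ and 9.16 to 110 in C57BL6/J. At E18.5 they were 1410 to 1429 in AKR/J, 274 to 1060 in RD7, 164 to 2082 in NOD.NON-H2-nb1, 181 to 2040 in CAST/EiJ and 94.3 to 143 in C57BL6/J. Its age difference was -6.81 ± 1.01 in AKR/J (limma adjusted p = 8.13e-06), the only one called, and its next largest difference was -3.71 ± 0.90 in RD7 (adjusted p = 0.0025). Across arrays its r with adult alpha was 0.78 at P30.5 and 0.72 at E18.5 (permutation, adjusted p = 0.00139 and 0.00964), with rho of 0.72 and 0.71 (adjusted p = 0.00891 and 0.0111). At E18.5 the relation weakened to 0.63 (adjusted p = 0.062) without 2 arrays and to 0.51 (adjusted p = 0.103) within groups.

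**Figure D4:**
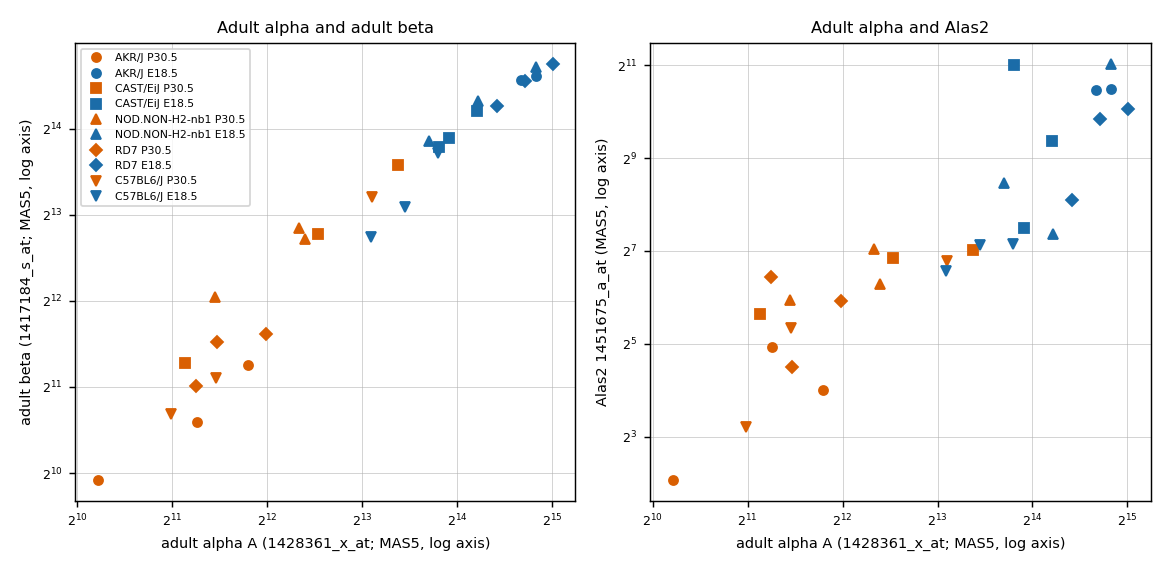
Adult beta (left) and Alas2 (right) MAS5 signal on the vertical axes against adult alpha A on the horizontal axes, all on log axes of base 2, with a point per array, colour for age and shape for strain. Adult alpha and beta follow a single band over both ages (r = 0.95 at P30.5 and 0.97 at E18.5), and Alas2 follows alpha more loosely.

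Other red cell markers did not fall with the globins as a list. Of the 16 measured, 1 was called lower at P30.5 in AKR/J (Alas2) and 0 in the other strains, while 2 or 3 were called higher in every strain. Of all 18194 genes, 6.36% to 7.82% were called lower with age and 7.7% to 8.49% higher, depending on the strain. Those called higher were Ank1, which encodes an ankyrin, Sptb, a spectrin, and Ermap, an erythroid membrane protein. Ank1 differed by 1.23 in AKR/J and 2.30 in C57BL6/J (limma adjusted p = 0.000369 and 4.01e-09), and Sptb by 2.74 in RD7 (adjusted p = 3.34e-06). Slc4a1, the anion exchanger of the red cell membrane, had differences of -3.49 ± 1.35 in AKR/J (adjusted p = 0.0605) and -3.28 ± 1.20 in RD7 (adjusted p = 0.0431), which were not called. It was singled out after its values were seen. Ank1 and Sptb are used by neurons too.

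Among regulators of erythroid cells and of the globin locus, all 15 were measured. At P30.5, 2 were called lower in AKR/J and NOD.NON-H2-nb1 and 3 in RD7, CAST/EiJ and C57BL6/J, with 0 called higher. Of all genes, 6.36% to 7.82% were called lower, depending on the strain. The regulators called were Myb, a factor of blood progenitors, and Ldb1, a bridging cofactor of the GATA complex, in every strain. Bcl11a, which silences Hbb-y in adult erythroid cells of the mouse, was called in CAST/EiJ, RD7 and C57BL6/J. The age difference of Myb was -4.66 in AKR/J and -5.63 in C57BL6/J (limma adjusted p = 1.69e-10 and 3.46e-13), and that of Ldb1 -1.58 and -1.81 (adjusted p = 9.62e-07 and 1.06e-08). For Bcl11a the differences ran from -1.26 in CAST/EiJ to -1.09 in C57BL6/J among the called strains. At E18.5 Myb read 5420 and 6836 in AKR/J, which stood first in adult beta, and 10250 to 13130 in C57BL6/J, which stood last. Which cells gave the signals of these regulators was not tested. Gata1, the master factor of red cell precursors, stayed between 11.6 and 106.9 in all arrays, and Klf1, the activator of adult beta globin, between 23.3 and 109. Nr2c1 and Nr2c2, nuclear receptors known to bind direct repeats of TGACC-like letters in embryonic globin promoters, ranged from 311 to 639 and from 2948 to 6842. Read from their brightest probe sets, they had no call. The paper lists both as lower in CAST/EiJ at P30.5, by array and by qRT-PCR. These 4 genes were added after their values were seen.

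In haem synthesis, 8 of 9 genes were measured and Alas2 in AKR/J was the only age call. Between strains, Alad, the enzyme after Alas2 in the pathway, was higher in AKR/J than in C57BL6/J by 2.41 at P30.5 (limma adjusted p = 3.4e-05) and 2.28 at E18.5 (adjusted p = 0.000224). Fech, which inserts the iron, was higher in AKR/J by 2.13 at E18.5 (adjusted p = 0.00068). Of 7 measured genes of iron and haem handling, Tfrc, the transferrin receptor, rose with age by 1.17 in AKR/J, 1.59 in RD7 and 1.21 in C57BL6/J, and Slc11a2, an iron transporter, by 1.13 in C57BL6/J.

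The globins of nerve and connective tissue moved the other way from haemoglobin. Cygb, cytoglobin, had 182 to 543 at P30.5 against 66.7 to 170.0 at E18.5 over all arrays. It rose with age by 2.01 in AKR/J, 2.06 in RD7, 2.16 in NOD.NON-H2-nb1, 1.39 in CAST/EiJ and 2.18 in C57BL6/J (limma adjusted p from 1.52e-06 to 0.000614), all called. Ngb, neuroglobin, rose by 2.34 in NOD.NON-H2-nb1 and 2.70 in CAST/EiJ, and its differences of 2.08, 1.69 and 0.75 in AKR/J, RD7 and C57BL6/J were not called. Mb, the myoglobin of muscle, read 112 and 178 in AKR/J at E18.5 and 5.19 to 9.72 in C57BL6/J at E18.5, and had no age call. These were the globins outside the haemoglobin clusters with a probe set.

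The genes outside the globin family whose signals were most like adult alpha, by Pearson r among those with a mean log2 signal of 8 or more, were Aimp2 (0.75), Dtd1 (0.74), Brcc3 (0.74), Hbs1l (0.72) and Aven (0.72) over 15 arrays at P30.5. Over the 14 arrays of E18.5 they were Trpm1 (0.89), Pstk (0.88), Slc26a7 (0.86), Niban1 (0.85) and Tmem51 (0.84). For Hbb-y at E18.5 they were Gas2 (0.85), Emilin3 (0.84), Lpl (0.84), Fndc1 (0.83) and Rnase4 (0.83), an order set in part by the AKR/J pools, and at P30.5, where Hbb-y is near the bottom of the scale, Pelp1 (0.86), Zfas1 (0.85), Tmsb4x (0.83), Dapl1 (0.83) and Npy (0.81). These were picked as the best of 9267 genes at P30.5 and 9347 at E18.5 and are given as a description.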

How the data were processed

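RNA from pools of 10 retinas was hybridised to Affymetrix arrays, 29 in all. The deposited values are MAS5 signals, linear intensities for 45101 probe sets that the authors scaled to a trimmed mean of 500.0 on every array (recomputed here with 2% trimmed), and a table of RMA log2 values deposited by the authors, quantile normalized, which holds 25444 probe sets (56.4%). It holds 2 of the 12 member probe sets, and the rule behind its probe sets is not given in the sources used here. The array median of log2 MAS5 ran from 6.52 to 7.08 and replicate arrays correlated at r = 0.893 to 0.938 (28 pairs). The number of arrays, 2 or 3 per group, limits the precision.

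MAS5 signals were taken to log2 and fitted with limma 3.58.1 in R 4.3.3 (lmFit, eBayes with trend, 1 mean per group of strain and age, 19 residual degrees of freedom), with Benjamini-Hochberg adjustment over all probe sets within each of 17 contrasts. RMA values were fitted without the trend. Groups came from the sample labels, and so did a date in each title, which may be that of any step. Permutation tests used 100000 resamples. On simulated data with shifts of 5 on the log2 scale, 143 of 200 changed probe sets were recovered, and 70 of 70 with a mean of 8 or more, with 0 false calls. Alternatives changed the normalization, offset, filter, prior, title date, samples and threshold.

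All member probe sets are named. From each other list (other globins, haem synthesis, regulators, iron handling and cell markers) up to 4 genes called in the most contrasts are named, besides those said to be added, and the 5 genes most like adult alpha and Hbb-y. A gene of a list was read from its brightest probe set. The members and lists were chosen with earlier results of these data known. Same-date arrays of different groups deviated together only weakly (mean r = 0.096 over 120 pairs, against -0.045 over 258 pairs of other dates), so the date is an alternative block and not part of the main design.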

Additional observations from a re-analysis of the deposited data

Results flagged for a closer look

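The age change of Hbb-y A and B differed between AKR/J and C57BL6/J by the test of the difference itself. From the RMA values the age change in AKR/J minus that in C57BL6/J was -5.01 for Hbb-y A and -5.33 for Hbb-y B (limma adjusted p = 4.21e-08 and 7.78e-09). The difference rests on 2 AKR/J pools at E18.5, which had RMA values of 8.20 and 8.70 for Hbb-y A. By MAS5, Hbb-y C read only 16.3 to 34.4 in these pools and had no call. The difference thus cannot be read as one in Hbb-y RNA from these data alone.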

How the results depend on the processing

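The counts of member probe sets called moved with the threshold and with the title date. With age, leaving out probe sets whose names mark shared sequence left 0 calls in AKR/J, RD7 and NOD.NON-H2-nb1 (6, 4 and 1 with them). At an adjusted p under 0.05 the age counts were 6 in NOD.NON-H2-nb1, 6 in CAST/EiJ and 3 in C57BL6/J. The share of all probe sets at that level is not given here, for these counts or for those at the looser threshold below. Such counts thus have no background to be set against. The NOD.NON-H2-nb1 age count was 0 without the trend, with title date as replicate block and without RD7 arrays, and 4 with only the groups compared or only that strain. Against C57BL6/J at P30.5 the NOD.NON-H2-nb1 count of 1 was 0 without the trend, with the replicate block, without RD7, with only the groups compared, with only that age and without shared probe sets, and CAST/EiJ had 1 at the looser threshold. At E18.5 the AKR/J count of 1 was 2 with an offset of 16, 4 at the looser threshold, and 0 with dim probe sets left out, without the trend, with only the groups compared, with only that age and without shared probe sets. At E18.5 NOD.NON-H2-nb1 and CAST/EiJ (1 each) had 0 with the replicate block and 0 without shared probe sets, and at the looser threshold CAST/EiJ and RD7 had 2 each. The AKR/J interaction count of 0 was 2 with the offset and 2 at the looser threshold. The cause of these moves was not tested, other than that fewer probe sets were counted where some were left out. The replicate block changed no other count. Leaving out 1 array gave 5 to 6 calls with age in AKR/J, 4 to 5 in RD7, 0 to 1 in NOD.NON-H2-nb1 and CAST/EiJ and 0 to 2 in C57BL6/J. Against C57BL6/J it gave 0 to 1 for NOD.NON-H2-nb1 and CAST/EiJ at both ages and for AKR/J at E18.5. The difference of Hbb-y from adult alpha, averaged over strains, was -1.78 against adult beta (permutation p = 0.0379) and reversed to 0.57 with the offset (permutation p = 0.17). The correlation of adult alpha with Alas2 at E18.5 was 0.63 without 2 arrays and 0.51 within groups. Over single probe sets, 325 alternatives of 21 results gave 264 on the same side of the threshold, 61 no longer past it and none reversed in limma. The RMA table could not give counts over 12 members, and no title date held enough arrays for a correlation within dates. Hbb-y signals near 1 are at the bottom of the scale and limit its fold changes.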
